A study of Mus musculus with 16 samples.

Results

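The genes described here encode nuclear subunits of the mitochondrial respiratory chain and ATP synthase. They were chosen as the probes whose RefSeq identifier is 1 of 58 listed ones, and 54 of the 58 were on the array, of 29094 identifiers in all. NDUFB6, ATP5D, ATP5G3 and ATP5J had no probe under the listed identifier. The 54 comprise 26 genes of complex I, 4 of complex II, 7 of complex III, 11 of complex IV and 6 of complex V. All 54 were well above background on all 15 arrays with the probe used, none was saturated, and all were among the 20216 transcripts tested.

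The samples were tumours of H295R, a human adrenocortical carcinoma line, grown in male SCID mice, a strain without working lymphocytes. All animals were dosed by mouth for 28 days, with corn oil (control), mitotane, 9-cis retinoic acid (labelled 9-cisRA), or mitotane and 9-cisRA together (labelled combined). Mitotane is an adrenal-directed drug used against adrenocortical carcinoma, and 9-cis retinoic acid is a ligand of retinoic acid and retinoid X receptors. RNA was measured on 1-colour human Agilent arrays, although the organism recorded for the series is the mouse. The scanner output of 15 arrays was used, 4 each for control, mitotane and 9-cisRA and 3 for combined, while combined replicate 3 was read only from the authors' value table. Doses are not given in the labels used here, and H295R is a single line.

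Complexes I to IV pass electrons from NADH and succinate to oxygen and, except complex II, pump protons across the inner mitochondrial membrane. Complex V, the ATP synthase, uses the returning protons to make ATP. Nuclear genes encode most of the subunits and mitochondrial DNA the rest, and steroid-producing adrenocortical cells also depend on mitochondria because several steroidogenic enzymes lie in them.

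Signals are given as log2 of the processed intensity minus the array's own 75th percentile, so 0 is the level of that percentile and a difference of 1 is a 2-fold difference. Apart from medians, counts, summed marker levels and means over probes, each number compares arrays for 1 probe. Levels of different probes cannot be set against each other. Errors on a difference are standard errors from limma's fit of all 4 groups. The scatter of every group, control included, thus enters each error, also where control is not compared. Adjusted p-values are Benjamini-Hochberg values over the 20216 transcripts. The labels do not tie each array to its own mouse, so p-values here reflect only how far these samples scatter, some of it perhaps technical. The 9-cisRA array lay at position 4 of every slide, so an effect of position on the slide cannot be told apart from one of 9-cisRA.

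One control array, replicate 4, was unlike the rest. Its 75th percentile intensity was 224.2, against 551.5 to 1061 on the other 14 arrays. Spots well above background made up 63.6% on it and 60.5% on combined replicate 4, against 71.5% to 77.4% on the other 13. All 8 adrenocortical marker genes, such as STAR, CYP11A1 and NR5A1, were among the transcripts tested, 7 of them well above background on every array. Signals of the 8 were summed before the log2 was taken, so bright probes such as STAR weigh most and dim ones hardly count. This summed level ran from 5.40 to 6.81 in control and 5.95 to 6.64 in mitotane. It ran from 6.18 to 6.60 in 9-cisRA and 6.11 to 6.50 in combined. The 5.40 was control replicate 4, and control replicates 1 to 3 read 6.81, 6.31 and 6.04. PTPRC, a pan-leukocyte gene, read 5.15 on control replicate 4 and -4.74 to -3.09 elsewhere. Among the other stromal or blood markers, CD68, PECAM1, HBB and VWF were not well above background on control replicate 4. CD68 read -6.11 there, while PECAM1, HBB and VWF read -5.75, -5.83 and -3.85, each its highest value on the 15 arrays. COL1A1 and COL1A2 read 3.38 and 2.26 there, within their range elsewhere, and ACTA2 read 1.38, its highest value.

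Most subunit genes read lower on control replicate 4. Relative to the mean of control replicates 1 to 3, 40 of the 54 read lower there, with a median difference of -0.62, against -0.32 over all transcripts tested, of which 59.9% were lower. SDHD, which anchors complex II in the membrane, differed by -1.21 with the probe used, and COX7B of complex IV by -1.18. The other SDHD probes differed by -0.87 and 0.17, so the probes of SDHD disagreed. In the other direction COX6C of complex IV read 2.61 higher, and ATP5G1, COX8A, SDHB, NDUFAB1 and NDUFV2 were also at least 2-fold higher. The 6 genes at least 2-fold higher and 3 at least 2-fold lower make 11.1% and 5.56% of the members, against 23.8% and 10.8% of all transcripts. For a named gene or a median, a comparison with control is also given without this array wherever that moved it by over 1.5 times or across 0.

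**Figure D1:**
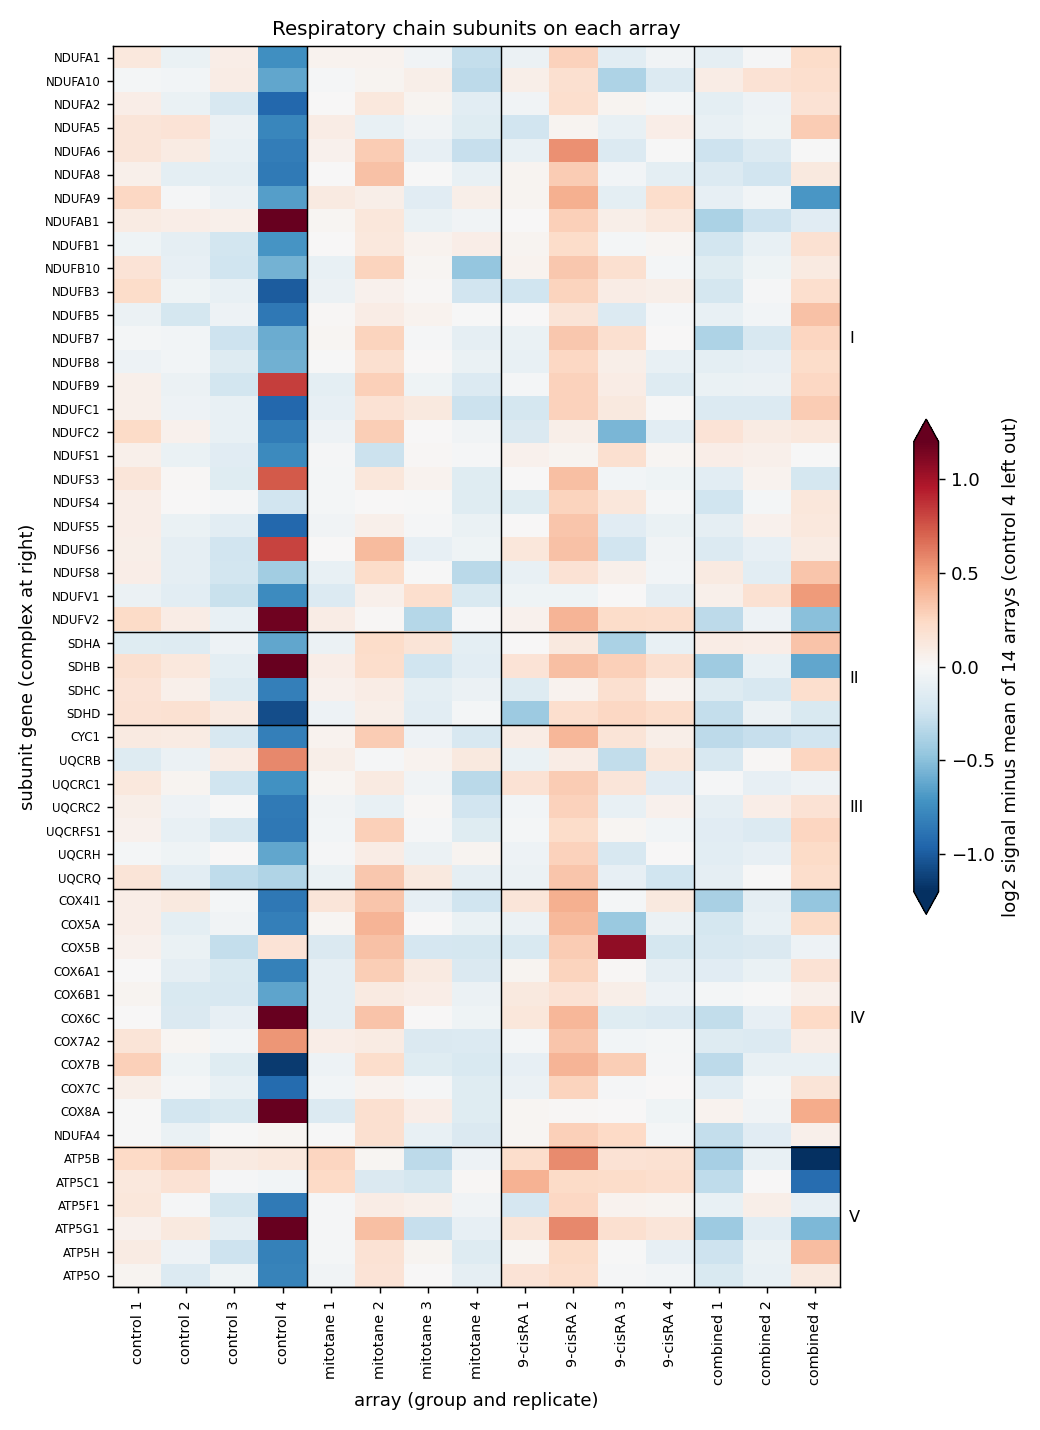
Heat map of 53 subunit genes (vertical axis, by complex) on 15 arrays (horizontal axis). Colour is the log2 signal minus the gene's mean over 14 arrays without control replicate 4, and values beyond 1.2 in either direction share the end colours. Control replicate 4 is the column of darkest colour, and 9-cisRA replicate 2 is red for most genes.

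Apart from that array, the median spread of the subunit genes within groups was a little below that of all transcripts tested. The pooled standard deviation within groups, with control replicate 4 left out, had a median of 0.17 over the 54 genes (range 0.10 to 0.37), against 0.21 over all transcripts tested. The latter include probes that were dim on some arrays, and no comparison with equally bright transcripts was made. COX5B, a peripheral subunit of complex IV, had the largest spread, and 9-cisRA replicate 3 read 5.82 against 4.57, 5.06 and 4.55 on 9-cisRA replicates 1, 2 and 4. ATP5B followed with 0.31. NDUFS5, NDUFS6, UQCRC2 and COX7C were each printed as 10 spots, and the median standard deviation across these copies was 0.07, 0.04, 0.05 and 0.04.

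No subunit gene passed an adjusted p of 0.05 in limma in any of the 6 comparisons, and the share of all transcripts called was 0% in each direction. At an unadjusted p under 0.05, combined against control held 2 higher and 7 lower members, against 11.6% higher and 2.21% lower among all transcripts. Combined against 9-cisRA held 0 higher and 5 lower members, with backgrounds of 7.43% and 2.04%. Combined against mitotane held 0 higher and 1 lower (2.95% and 1.8%), mitotane against control 1 and 0 (5.12% and 0.92%), and 9-cisRA against control 2 and 0 (2.16% and 1.35%). The interaction, which is combined minus mitotane minus 9-cisRA plus control, held 0 higher and 3 lower (1.39% and 2.33%). With slide as a block in limma, mitotane and 9-cisRA each against control held 0 higher members (4.41% and 2.15% of all transcripts), and combined against control 1 higher and 7 lower (10.4% and 2.26%). The lower counts were then 2 against mitotane (1.87%), 7 against 9-cisRA (2.08%) and 4 for the interaction (2.5%). Fitted with only the 2 groups compared, combined against 9-cisRA held 0 higher and 9 lower members (11% and 4.1% of all transcripts). Combined against mitotane then held 0 and 0 (5.47% and 4.21%), and combined against control 1 and 2 (5.73% and 0.757%). No member passed the adjusted threshold in these fits. The comparisons with control share the control arrays, and those with combined share the combined arrays.

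These small counts moved with single arrays. Without combined replicate 4, combined against control held 1 higher and 2 lower members (7.14% and 0.831% of all transcripts), and without control replicate 1 it held 4 higher and 6 lower (14% and 3.48%). Without control replicate 4 it held 1 higher and 8 lower, against 13.2% and 5.13% of all transcripts. For combined against 9-cisRA the count was 2 higher and 10 lower without control replicate 4 (13.7% and 5.33%), and 3 lower without combined replicate 1, combined replicate 4 or 9-cisRA replicate 2 (1.95%, 0.93% and 1.48%). For combined against mitotane the lower count was 6 without control replicate 4 (5.04%, with 0 higher against 6.46%), 3 without combined replicate 2 (1.68%) and 2 without mitotane replicate 3 (1.57%). It was 0 without combined replicate 4 or mitotane replicate 1 or 2 (1.01%, 1.51% and 1.29%).

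The single-agent counts were as unsteady. For 9-cisRA against control the higher count was 11 without control replicate 1 (6.05% of all transcripts) and 0 without control replicate 4 (2.14%). It was also 0 without control replicate 3, combined replicate 2, 9-cisRA replicate 1, 2 or 3, or any mitotane array (1.27% to 2.29%), and 1 without combined replicate 1 or 9-cisRA replicate 4 (1.73% and 1.75%). For mitotane against control it was 4 without control replicate 1 (7.95%) and 0 without control replicate 4 (5.37%). It was also 0 without combined replicate 2, 9-cisRA replicate 1, 3 or 4, or any mitotane array (2.38% to 5.07%), while leaving out control replicate 3 gave 1 higher and 2 lower members (6.13% and 1.56%). The lower count of the interaction was 5 without control replicate 4 (3.88%), and 0 without combined replicate 1 or 9-cisRA replicate 2 (2.09% and 1.97%). It was 1 without mitotane replicate 1 or 2 or 9-cisRA replicate 1 or 4 (1.47% to 2.01%), and 2 without mitotane replicate 4, 9-cisRA replicate 3 or control replicate 3 (1.86% to 2.19%).

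Arrays were also weighted by their own noise in limma. Control replicate 4 had a weight of 0.04, control replicate 2 of 8.81 and combined replicate 1 of 3.96, with 0.32 to 2.51 for the others. Control replicate 2 and combined replicate 1 thus counted most in their groups. With these weights, 12 members passed the adjusted threshold for combined against control. Of these, 2 were higher and 10 lower, against 19.6% and 9.03% of all transcripts, where both shares were 0% without weights. For combined against 9-cisRA 9 passed, all lower, against 2.18% of all transcripts lower. Leaving out control replicate 4 without weights gave 0 members past that threshold in either comparison.

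In the tumours that received both agents, most subunits read lower than in tumours given 9-cisRA alone, and for a few, among them the central subunits of complex V, the arrays of these groups did not overlap. Against 9-cisRA alone, 41 of the 54 genes read lower in combined tumours and 13 higher, with a median of -0.08, while over all transcripts the median was 0.06 and 59.4% read higher. This median ran from -0.19 to -0.02 over the arrays left out in turn. On 9-cisRA replicate 2, 53 of the 54 genes exceeded their mean, which raises the group compared with. Within slide 4, 38 of the 54 genes read higher in combined than in 9-cisRA. The arrays of the 2 groups did not overlap for 9 lower and 2 higher members, or 16.7% and 3.7%, against a background of 4.71% and 11.6%. Against control the median was 0.16 (0.09 over all transcripts) with all arrays and 0.01 without control replicate 4 (0.08 over all transcripts). Without control replicate 4 the arrays did not overlap for 7 lower and 2 higher members, against 8.87% and 20.2% of all transcripts.

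The subunits were also divided by role into 15 of the catalytic core, which carry out electron transfer or ATP synthesis, and 39 supporting ones. For combined against control, 6 core genes were lower and 2 higher at an unadjusted p under 0.05, against 1 lower and 0 higher among the supporting genes, with 2.21% lower and 11.6% higher over all transcripts. The counts without control replicate 4 were 6 lower and 1 higher in the core and 2 lower and 0 higher among the rest (5.13% and 13.2%). For combined against 9-cisRA, 5 core genes and 0 supporting genes were lower at that level (2.04%), or 7 and 3 without control replicate 4 (5.33%). The median was -0.23 for the core and -0.06 for the rest. Non-overlap in the lower direction covered 7 of 15 core and 2 of 39 supporting genes, with the background of 4.71% given above. No test compares the 2 classes.

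**Figure D2:**
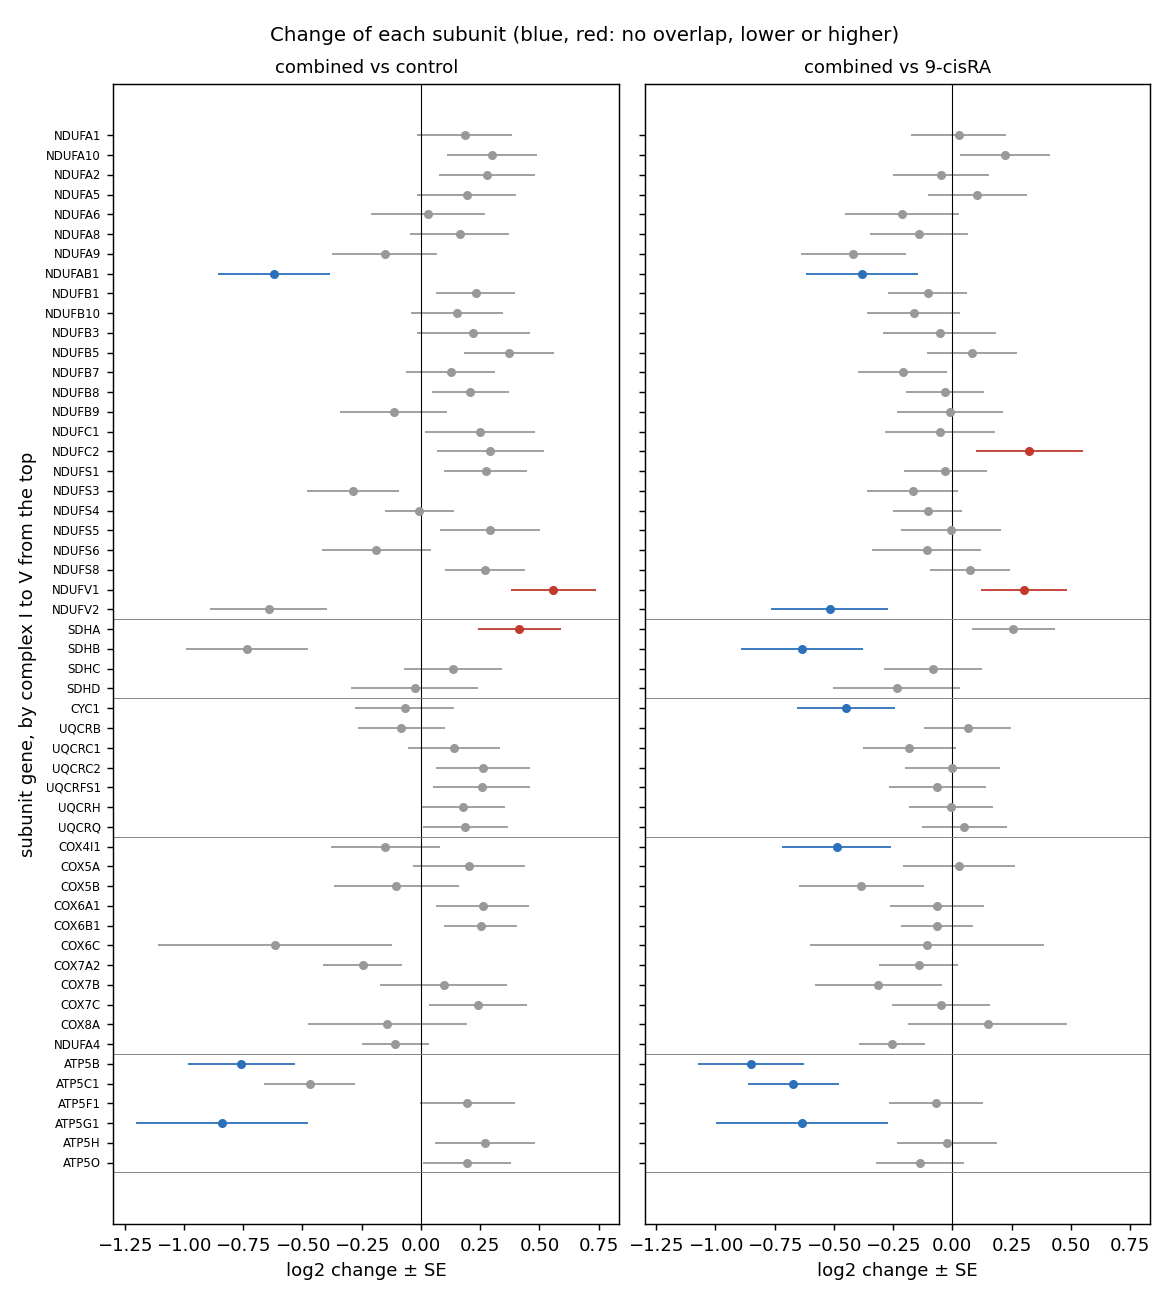
Log2 change with its standard error (horizontal axis) for 53 subunit genes (vertical axis, complexes I to V from the top), for combined against control (left) and combined against 9-cisRA (right), all 15 arrays. Blue points are genes whose groups did not overlap with combined lower (3 on the left, 8 on the right), red points those with combined higher (2 and 2), and grey points overlapped.

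Complex V had the lowest median of the 5 complexes for the combined tumours, against 9-cisRA and against control with all arrays. ATP5B (NM_001686) encodes the catalytic beta subunit of the F1 head, where ADP is phosphorylated. It read 4.18, 4.24, 4.05 and 4.07 on control replicates 1 to 4 and 4.21, 3.97, 3.63 and 3.88 on the mitotane arrays. On the 9-cisRA arrays it read 4.16, 4.51, 4.12 and 4.13, and on combined replicates 1, 2 and 4 it read 3.55, 3.85 and 2.74. Every combined array was below every control and 9-cisRA array, and replicate 4 was far below the other two. The difference was -0.76 ± 0.23 from control (1.69-fold, limma adjusted p = 0.237) and -0.85 ± 0.23 from 9-cisRA (1.80-fold, limma adjusted p = 0.28). Without combined replicate 4 the differences were -0.44 and -0.53. From mitotane it was -0.54 ± 0.23 (limma adjusted p = 0.986), where the groups overlapped, and -0.22 without combined replicate 4.

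ATP5C1 (NM_005174) encodes the gamma subunit, the shaft that turns within the F1 head. Its signal was 1.30, 1.35, 1.16 and 1.14 in control and 1.41, 1.00, 0.97 and 1.18 in mitotane tumours. It was 1.59, 1.40, 1.40 and 1.37 in 9-cisRA and 0.86, 1.18 and 0.26 in combined tumours. The combined arrays lay below all 9-cisRA arrays but overlapped with control, where replicates 3 and 4 were below combined replicate 2. The difference from 9-cisRA was -0.67 ± 0.19 (1.59-fold, limma adjusted p = 0.289), and from control -0.47 ± 0.19 (limma adjusted p = 0.314). Without combined replicate 4 these were -0.42 and -0.22. ATP5C1 was also the complex V gene whose 9-cisRA arrays all exceeded the control arrays, by 0.20 ± 0.18 on average (limma adjusted p = 0.744).

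ATP5G1 (NM_005175) encodes a precursor of subunit c, which forms the proton-driven membrane ring. Control read 2.18, 2.24, 2.02 and 3.95, and mitotane 2.12, 2.49, 1.85 and 2.03. The 9-cisRA arrays read 2.28, 2.70, 2.32 and 2.27, and the combined arrays 1.69, 2.00 and 1.59. Combined lay below all control and 9-cisRA arrays, and control replicate 4 was far above every other array. The difference was -0.84 ± 0.36 from control (limma adjusted p = 0.331), or -0.39 without control replicate 4, and -0.63 ± 0.36 from 9-cisRA (limma adjusted p = 0.654). The remaining 3 complex V genes, ATP5F1, ATP5H and ATP5O, belong to the stalk that holds the F1 head still, and their arrays overlapped in both comparisons. Over the 6 genes the median was -0.38 against 9-cisRA with 0 of 6 above 0, and -0.14 against control, or -0.20 without control replicate 4. Within slides 1, 2 and 4 the complex V median for combined minus 9-cisRA was -0.47, -0.31 and -0.41.

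**Figure D3:**
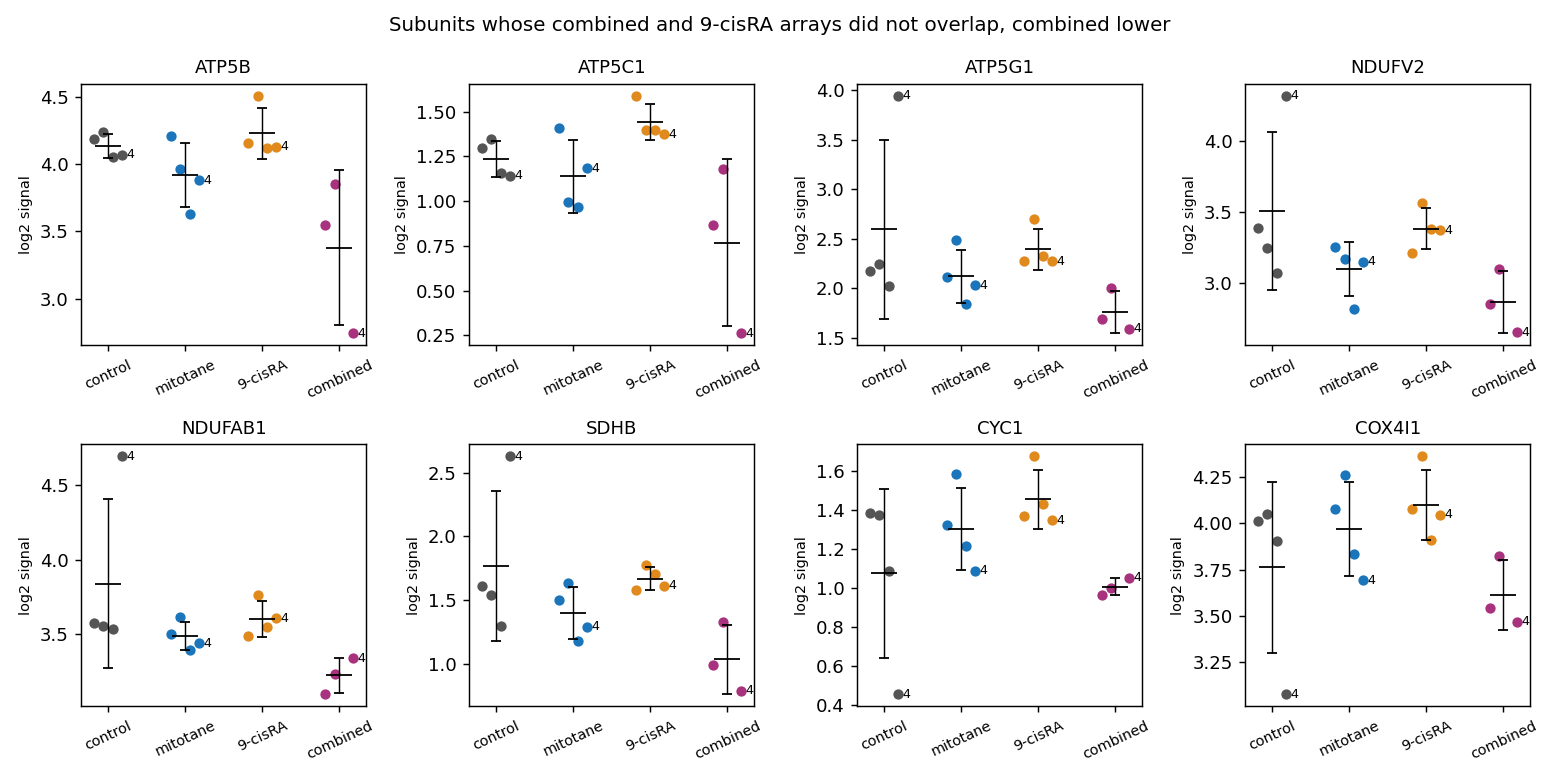
Log2 signal (vertical axis) of 8 genes whose combined arrays all read below the 9-cisRA arrays, by group (horizontal axis). Points are arrays, black lines the mean with standard deviation (n = 4, 4, 4 and 3), and the digit 4 marks replicate 4. Control replicate 4 is high for ATP5G1, NDUFV2, NDUFAB1 and SDHB and low for CYC1 and COX4I1.

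In complex I, values lay on both sides among the subunits that take up electrons. NDUFV1 (NM_007103) and NDUFV2 (NM_021074) form the NADH-oxidising tip, in which NDUFV1 binds NADH and the flavin and NDUFV2 carries an iron-sulphur cluster. NDUFV1 read 5.11, 5.05, 4.91 and 4.42 in control, 5.02, 5.24, 5.38 and 5.0 in mitotane, 5.13, 5.13, 5.19 and 5.08 in 9-cisRA and 5.25, 5.36 and 5.69 in combined tumours. Combined was above every control and 9-cisRA array, by 0.56 ± 0.18 (1.47-fold, limma adjusted p = 0.243) and 0.30 ± 0.18 (limma adjusted p = 0.677). Without combined replicate 4 the latter was 0.17. NDUFV2 read 3.39, 3.25, 3.07 and 4.32 in control, 3.25, 3.17, 2.81 and 3.15 in mitotane, 3.21, 3.56, 3.38 and 3.37 in 9-cisRA and 2.84, 3.09 and 2.65 in combined tumours. Its difference was -0.64 ± 0.25 from control (limma adjusted p = 0.29), or -0.37 without control replicate 4, where the groups overlapped, and -0.52 ± 0.25 from 9-cisRA (limma adjusted p = 0.545), where they did not. The 2 partners of this module thus read on opposite sides of the 9-cisRA arrays.

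NDUFAB1 (NM_005003) is the mitochondrial acyl carrier protein, a complex I subunit that also serves fatty acid synthesis and iron-sulphur cluster assembly. It read 3.57, 3.55, 3.54 and 4.70 in control, 3.50, 3.61, 3.39 and 3.44 in mitotane, 3.48, 3.76, 3.54 and 3.61 in 9-cisRA and 3.09, 3.23 and 3.34 in combined tumours. Combined lay below all arrays of the other 3 groups. The difference from control was -0.62 ± 0.24 (limma adjusted p = 0.287), or -0.33 without control replicate 4. It was -0.27 ± 0.24 from mitotane and -0.38 ± 0.24 from 9-cisRA (limma adjusted p = 0.703). All 3 errors include the scatter of control replicate 4, and without that array the pooled standard deviation of NDUFAB1 within groups was 0.10. NDUFS1, the largest core subunit, read 2.93, 2.78, 2.73 and 2.10 in control and 2.94, 2.93 and 2.86 in combined, a difference of 0.27 ± 0.18 (limma adjusted p = 0.502), or 0.09 without control replicate 4. NDUFC2, a membrane-arm subunit, was the other member whose combined arrays all exceeded the 9-cisRA arrays, at 0.32 ± 0.22 (limma adjusted p = 0.758), or 0.21 without 9-cisRA replicate 3. Over the 26 complex I genes the median was 0.19 against control (0.02 without control replicate 4), 0.00 against mitotane and -0.05 against 9-cisRA.

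The catalytic pair of complex II, SDHB and SDHA, oxidises succinate in the citric acid cycle. In combined tumours SDHB read lower, and SDHA read higher with 1 of its 4 probes, with no test passed. SDHB (NM_003000), the iron-sulphur subunit, read 1.61, 1.54, 1.30 and 2.63 in control, 1.50, 1.63, 1.18 and 1.29 in mitotane, 1.58, 1.78, 1.70 and 1.61 in 9-cisRA and 0.99, 1.33 and 0.79 in combined tumours. Its difference was -0.63 ± 0.26 from 9-cisRA, with no overlap (1.55-fold, limma adjusted p = 0.452), and -0.74 ± 0.26 from control (limma adjusted p = 0.26; -0.45 without control replicate 4), where control replicate 3 lay below combined replicate 2. SDHA (NM_004168), the flavoprotein that binds succinate, read 4.44, 4.43, 4.52 and 3.96 in control, 4.51, 4.80, 4.74 and 4.47 in mitotane, 4.59, 4.70, 4.20 and 4.49 in 9-cisRA and 4.67, 4.66 and 4.93 in combined tumours. Combined was above every control array, by 0.42 ± 0.17 (limma adjusted p = 0.32), with the probe used. The other 3 SDHA probes gave -0.21, -0.04 and 0.03, so the probes of this gene disagreed. Against 9-cisRA the probe used gave 0.26 and the others -0.48, -0.37 and -0.24, the same side as SDHB. SDHC, a membrane anchor, gave 0.13 against control with the probe used and -0.56 and 0.42 with the others.

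In complex III, CYC1 (NM_001916) encodes cytochrome c1, which hands electrons to cytochrome c. It read 1.39, 1.37, 1.09 and 0.46 in control, 1.32, 1.59, 1.22 and 1.09 in mitotane, 1.37, 1.68, 1.43 and 1.35 in 9-cisRA and 0.97, 1.00 and 1.05 in combined tumours. Combined lay below every mitotane and 9-cisRA array, with differences of -0.30 ± 0.21 and -0.45 ± 0.21 (limma adjusted p = 0.522 for 9-cisRA). The difference from control was -0.07 ± 0.21 with all arrays and -0.27 without control replicate 4, while without control replicate 1 or 2 it was 0.03. UQCRFS1, the Rieske iron-sulphur protein, read 5.09, 4.94, 4.84 and 4.17 in control and 4.89, 4.87 and 5.29 in combined, with overlap in every comparison. The 7 complex III genes had a median of -0.01 against 9-cisRA.

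In complex IV, COX4I1 (NM_001861) encodes a nuclear subunit that regulates the oxidase. It read 4.01, 4.05, 3.91 and 3.08 in control, 4.08, 4.26, 3.84 and 3.69 in mitotane, 4.08, 4.36, 3.91 and 4.05 in 9-cisRA and 3.54, 3.82 and 3.47 in combined tumours. Combined lay below every 9-cisRA array, a difference of -0.49 ± 0.23 (1.40-fold, limma adjusted p = 0.535). It was the only 1 of the 11 complex IV genes without overlap in that comparison. COX5A, another supporting subunit, read 3.27, 3.08, 3.15 and 2.37 in control, 3.12, 3.59, 2.75 and 3.12 in 9-cisRA and 2.98, 3.11 and 3.43 in combined tumours, with differences of 0.20 ± 0.24 from control and 0.03 ± 0.24 from 9-cisRA. Without control replicate 4 the former was 0.00, and over the arrays left out in turn the latter ran from -0.10 to 0.17. The complex IV median was -0.11 against 9-cisRA and -0.10 against control, or 0.00 without control replicate 4.

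**Figure D4:**
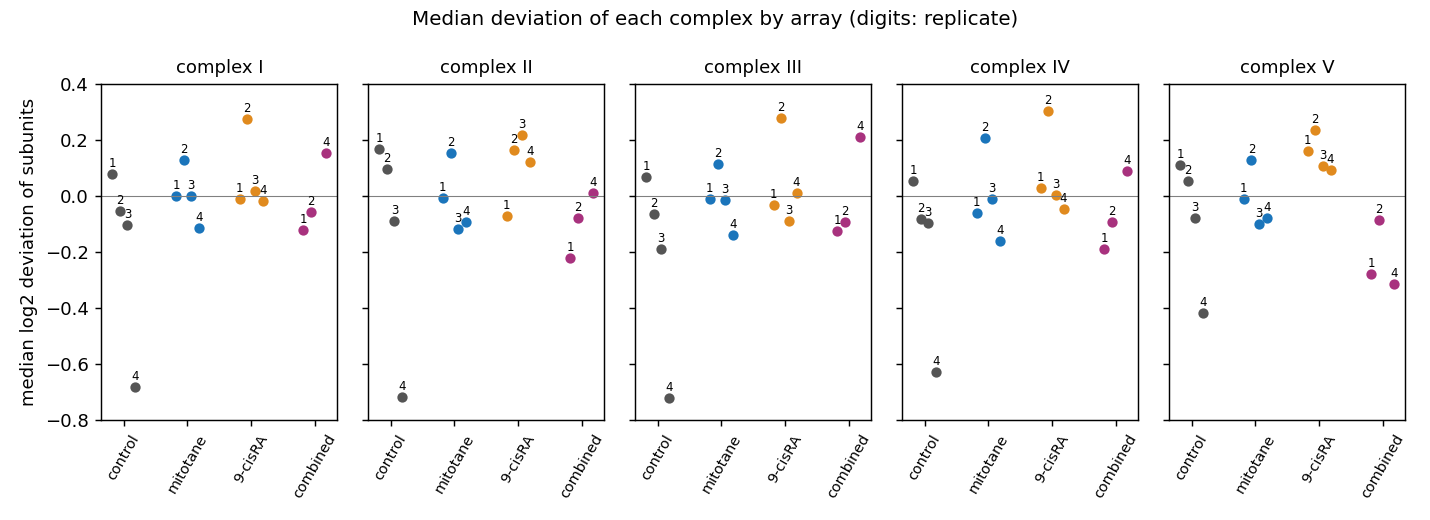
Median deviation of the subunits of each complex (vertical axis, log2, from each gene's mean without control replicate 4) on 15 arrays, by group (horizontal axis). Points are arrays and digits are replicates. Control replicate 4 is lowest in all 5 panels. In complex V the 3 combined arrays lie below all 9-cisRA arrays, while combined replicate 4 is above combined replicates 1 and 2 in complexes I to IV.

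Combined replicate 4 differed from its group in both directions. Relative to the mean of combined replicates 1 and 2, 40 members read higher and 14 lower, with a median of 0.25 against 0.04 over all transcripts. Among the lowest members there were ATP5B at -0.96 and ATP5C1 at -0.76. Without control replicate 4 and combined replicate 4, combined against 9-cisRA had a median of -0.19 with 49 of 54 members below 0. The arrays then did not overlap for 21 lower and 2 higher members, against 8.86% and 18.2% of all transcripts (4.71% and 11.6% with all arrays). The combined group then held only replicates 1 and 2, which makes non-overlap easier, and this alternative was chosen after the data were seen. Within slides, combined minus 9-cisRA had a member median of -0.12 on slide 1 with 42 of 54 below 0, -0.34 on slide 2 with 51 below, and 0.15 on slide 4 with 16 below. The part of these arrays' quality in the result was not tested.

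Combined replicate 3 was not used in any of these fits, and the authors' value table gives a value for it. That table holds log2 values centred on each probe's median over 16 arrays. On it, all 9 genes that read lower without overlap against 9-cisRA had combined replicate 3 below all 4 arrays of 9-cisRA. Among all 54 members 15 did so, these 9 included, or 27.8%, against 19.7% of all transcripts tested. ATP5B stood at -0.76 on combined replicate 3, against 0.09 to 0.51 in 9-cisRA and -0.04 to 0.22 in control. ATP5C1 stood at -0.58 against 0.20 to 0.44 in 9-cisRA. The values for SDHB, NDUFV2 and NDUFAB1 were -0.42, -0.42 and -0.36, and those for ATP5G1, COX4I1 and CYC1 -0.18, -0.19 and -0.16. NDUFV1 stood at 0.23 and SDHA at 0.19, both above all 9-cisRA and control arrays. The 9-cisRA arrays of this comparison are those that chose the 9 genes, so the count of 9 and the share of 27.8% are only descriptions. Over all members combined replicate 3 had a median of 0.02.

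**Figure D5:**
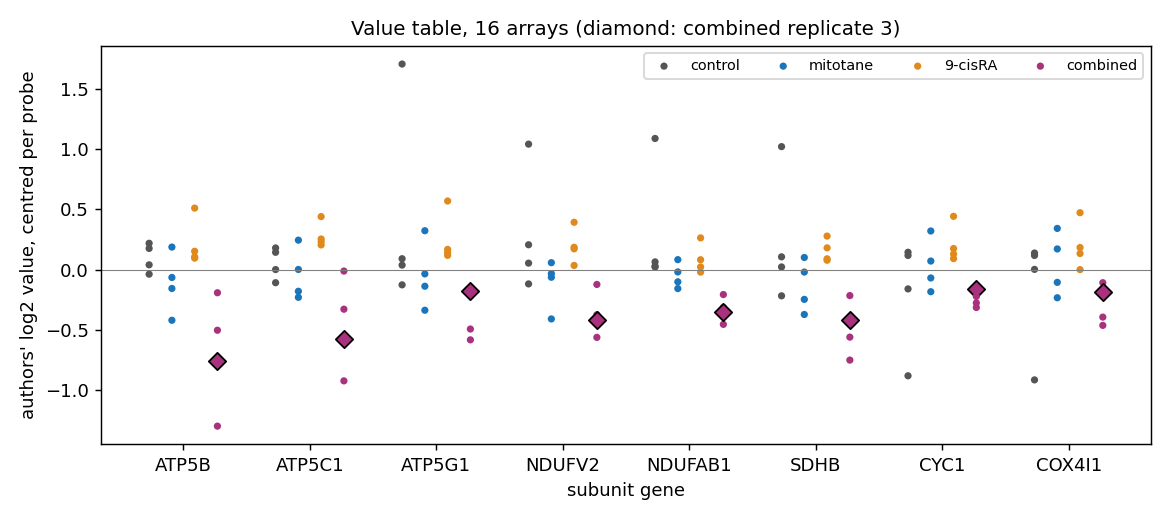
Authors' log2 value centred per probe (vertical axis) for 8 subunit genes (horizontal axis) on 16 arrays, coloured by group. The diamond is combined replicate 3, for which no scanner values were used; it lies below all 9-cisRA arrays for each of the 8 genes shown.

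With mitotane alone, few subunit genes were clear of the control arrays. Against control, 37 of 54 read higher with a median of 0.16 (61.5% and 0.09 over all transcripts), and without control replicate 4 the median was 0.01 with 29 higher. NDUFB1, an accessory complex I subunit, read 4.13, 4.07, 3.96 and 3.48 in control and 4.19, 4.31, 4.23 and 4.26 in mitotane tumours. The mitotane arrays were all above the control arrays, by 0.34 ± 0.15 (unadjusted p = 0.0446, limma adjusted p = 0.713), or 0.19 without control replicate 4. NDUFB5, of the same membrane arm, was the other gene without overlap, at 0.33 ± 0.18 (0.15 without control replicate 4), so 2 members were higher and 0 lower, or 3.7% and 0%, against 3.56% and 0.688% of all transcripts. SDHA was next, at 0.29 ± 0.16, or 0.17 without control replicate 4. The lowest by p were NDUFV2 at -0.41 ± 0.23, NDUFAB1 at -0.35 ± 0.22 and SDHB at -0.37 ± 0.24, or -0.14, -0.07 and -0.08 without control replicate 4. Member medians on slides 1 to 4 were -0.09, 0.21, 0.10 and 0.55.

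With 9-cisRA alone most members read higher than control, by little. The median was 0.23 with 42 of 54 above 0 (0.03 and 53.9% over all transcripts), and 0.11 with 48 above 0 without control replicate 4. COX6B1, a complex IV subunit near the cytochrome c site, read 4.63, 4.41, 4.40 and 3.97 in control and 4.71, 4.77, 4.67 and 4.53 in 9-cisRA tumours, a difference of 0.32 ± 0.14 (limma adjusted p = 0.744), and the groups overlapped. NDUFB1 was 0.34 ± 0.15 higher with 4.22, 4.40, 4.16 and 4.20 on the 9-cisRA arrays and no overlap, and CYC1 0.38 ± 0.19 higher with overlap. The differences of COX6B1, NDUFB1 and CYC1 were 0.19, 0.19 and 0.17 without control replicate 4. Non-overlap held for 2 higher members, NDUFB1 and ATP5C1 (1.67% of all transcripts), and 0 lower (0.727%). COX6C, NDUFAB1 and COX8A had the smallest p among lower members, at -0.51, -0.24 and -0.29, and each was above 0 without control replicate 4, at 0.14, 0.05 and 0.14. The member median was 0.27 on 9-cisRA replicate 2, where 53 of 54 genes exceeded their mean, and between -0.02 and 0.02 on the other 3. Within slides it was -0.08, 0.31, 0.18 and 0.64 for slides 1 to 4, above 0 for 18, 52, 39 and 40 genes.

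Against mitotane alone, combined tumours had a member median of -0.04, with 19 of 54 above 0 (0.01 and 52% over all transcripts). Non-overlap held for CYC1 and NDUFAB1 lower (4.5% of all transcripts) and for NDUFA10 higher (6.54%). NDUFA10, an accessory subunit of the membrane arm, read 2.03, 2.08, 2.11 and 1.73 in mitotane and 2.13, 2.22 and 2.24 in combined tumours, a difference of 0.21 ± 0.19 (0.13 without mitotane replicate 4), but the mean of its probes gave -0.17. ATP5C1 differed by -0.37 ± 0.19, NDUFV1 by 0.28 ± 0.18 and NDUFS8, an iron-sulphur subunit, by 0.15 ± 0.17. Without combined replicate 4 these were -0.12, 0.15 and 0.04, and without combined replicate 2 ATP5C1 was at -0.58 and NDUFS8 at 0.27. Slides 1, 2 and 4 gave member medians of -0.14, -0.23 and 0.25.

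The interaction asks whether the 2 agents together differ from the sum of each alone. Its member median was -0.25 with 10 of 54 above 0, against 0.00 and 50.2% over all transcripts, and -0.13 without control replicate 4. CYC1 at -0.68 ± 0.28, COX4I1 at -0.69 ± 0.31 and ATP5C1 at -0.57 ± 0.26 had the smallest p (limma adjusted p = 0.965 for each), and ATP5C1 was at -0.32 without combined replicate 4. COX8A, COX6C and NDUFA10 led the other direction at 0.45 ± 0.46, 0.41 ± 0.67 and 0.13 ± 0.26, and stood at 0.02, -0.24 and 0.29 without control replicate 4. NDUFA10 was at 0.03 without 9-cisRA replicate 3.

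Genes that serve the chain were read for combined against control from lists given by counts alone; the pairing of their accessions with symbols could not be checked against a human table here. Other subunits (19 of 21 found) had 0 higher and 1 lower at an unadjusted p under 0.05 and a median of 0.05, and assembly factors (13 of 15) 1 and 0 with a median of 0.09. Regulators of mitochondrial biogenesis (11 of 11) had 0 and 0 with a median of 0.07, and pyruvate dehydrogenase and citric acid cycle genes (14 of 16) 0 and 1 with a median of 0.03. The background was 11.6% higher and 2.21% lower. Without control replicate 4 these lists held 0 and 3, 1 and 2, 2 and 1, and 0 and 3, with medians of -0.05, 0.03, 0.07 and -0.18, against 13.2% and 5.13%. FH, the fumarase of the citric acid cycle, was the lower one: its mean was 2.13 ± 0.19 (SD, n = 4) in control, 1.81 ± 0.21 (n = 4) in mitotane, 2.16 ± 0.22 (n = 4) in 9-cisRA and 1.44 ± 0.41 (n = 3) in combined tumours. It differed from control by -0.68 ± 0.20 (limma adjusted p = 0.235) and from 9-cisRA by -0.72 ± 0.20 (limma adjusted p = 0.283). NDUFA12, an accessory complex I subunit, was the lower one of the other subunits, at -1.0 ± 0.46, or -0.39 without control replicate 4.

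Named by the same rule, ATP5E of complex V differed by 0.31 ± 0.21 (0.09 without control replicate 4). COX15, needed to make heme A for complex IV, differed by 0.59 ± 0.25 (0.36 without control replicate 4). OXA1L, the membrane insertase for subunits made in mitochondria, differed by -0.41 ± 0.26, or -0.04 without combined replicate 4 and -0.63 without combined replicate 2. POLRMT, the mitochondrial RNA polymerase, differed by 0.23 ± 0.13, and CS, citrate synthase, by 0.23 ± 0.16 (0.10 without control replicate 4). PPARGC1B, a coactivator of biogenesis genes, differed by -0.53 ± 0.59, or 0.28 without control replicate 4. Of the tissue or hypoxia isoforms, COX7A1 and NDUFA4L2 were not well above background on any array, and COX4I2 and COX6A2 differed by 0.03 ± 0.33 and -0.20 ± 0.28, or 0.35 and 0.09 without control replicate 4. For combined against 9-cisRA the other subunits had 0 higher and 6 lower genes without overlap, with a median of -0.17, against the backgrounds of 11.6% and 4.71%.

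Of the 8 stromal or blood markers, 4 were well above background on every array, PTPRC, COL1A1, COL1A2 and ACTA2, and 2 on none, PECAM1 and HBB. The level of the 8, summed before the log2 was taken, was 3.93 to 5.74 in control and 2.38 to 5.58 in mitotane tumours. It was 4.52 to 6.33 in 9-cisRA and 4.96 to 5.38 in combined tumours. Bright probes weigh most in it, such as COL1A1 and, on control replicate 4, PTPRC. The 5.74 was control replicate 4. Control replicates 1 to 3 read 4.13, 4.05 and 3.93, each below every 9-cisRA and combined array. COL1A1, a collagen gene, read 4.28, 5.68, 3.71 and 4.35 in 9-cisRA, 4.73, 4.38 and 4.90 in combined, 1.42, 4.93, 1.90 and 2.61 in mitotane and 3.49, 3.33, 3.09 and 3.38 in control tumours. Replicate 2 was highest in mitotane and in 9-cisRA, the replicate on which the member median was also highest in both groups. The arrays carry human probes and the tumours grew in mice. Whether these marker signals came from the H295R cells or from mouse RNA was not tested, so they are no measure of host tissue. The part of these markers in the subunit values was not tested, and in bulk tumours fewer cells of a type and less RNA per cell cannot be told apart.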

How the data were processed

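RNA of each tumour carried a Cy3 label and was read on 1-colour arrays, 4 per group per the labels' titles, on 4 slides that each hold 1 array of every group. The deposited scanner files give an intensity for each spot, written by Agilent's Feature Extraction software (the submitters' processing notes name version 11.0.1) and background-subtracted on the array per the file headers. The authors' value table is on a log2 scale, centred per probe, with its scaling not given in the sources used here. The median of its columns was -0.43 for control replicate 4 and -0.03 to 0.06 elsewhere. Differences between its columns followed those between scanner values, which sets their direction.

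The processed intensity was put on a log2 scale and each array's 75th percentile (43118 spots without controls) subtracted. Outlier spots were left out, spots of a probe averaged, and the probe with the highest mean stood for its identifier. Transcripts entered the test if at least 1 group had them well above background on all its arrays. All 4 groups entered 1 fit in limma 3.58.1 (R 4.3.3, using matplotlib 3.10.9 and version 1.17.8 of data.table), which was tested on simulated data. P-values are two-sided. The number of arrays limits the precision.

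The members and lists were chosen with earlier results of these data known. Named members were 10 chosen by role, the 3 with the smallest p in each direction of each comparison where none passed an adjusted p of 0.05, for each other list the gene with the smallest p in each direction for combined against control, the 4 isoform genes, and members left out by a filter. Genes named outside this rule (such as COX5B, SDHC, SDHD, COX7B and ATP5G1) were chosen after their values were seen. Replicate numbers follow the slide in the sample titles, so slide is a shared batch and the numbers pair the arrays. Same-slide deviations correlated at -0.27 to 0.37 over 21 pairs (median 0.01). Pairs from different slides correlated at -0.42 to 0.48 over 63 pairs (median -0.02). Alternatives were another background correction (normexp on median spot signals, since mean signals are not used here), other scalings, filters, probe rules, slide as a block, array weights, the value table and leaving out arrays. No human sequence table was used. The values of 1 member are not reported here; it stays in the counts and medians.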

Additional observations from a re-analysis of the deposited data

Results flagged for a closer look

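Within each group of 4 arrays, 48 sets of values were checked for an array whose gap to its nearest neighbour took up most of the group's range (Dixon's criterion). About 1 set in 20 meets it by chance, or 2.4 of 48, and 7 did. The sets share arrays and genes and are not independent, so 7 against 2.4 is no test of an excess. The combined group, with 3 arrays, was not checked. The median deviation of all members was 0.27 on 9-cisRA replicate 2, against -0.02 to 0.02 on the other 9-cisRA arrays, and the median of complex I was 0.27 there as well. ATP5B read 4.51 on 9-cisRA replicate 2, against 4.12 to 4.16. ATP5C1 read 1.59 on 9-cisRA replicate 1, against 1.37 to 1.40. NDUFS1 read 2.60 on mitotane replicate 2, against 2.85 to 2.88. On control replicate 4, SDHA read 3.96 against 4.43 to 4.52, and COX4I1 read 3.08 against 3.91 to 4.05.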

How the results depend on the processing

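Of 155 medians over members under an alternative, 2 moved by more than 0.21, the standard deviation between arrays of a group with control replicate 4 included, 4 lay on the other side of 0, and 28 others moved by over 1.5 times. Of 155 counts of members past the adjusted threshold, 2 moved. The combined against control median was -0.063 with array weights and -0.081 without control replicate 4 and combined replicate 4, an alternative chosen after seeing the data. With array weights 12 members passed for combined against control and 9 for combined against 9-cisRA, where the reported count is 0. Leaving out 1 array at a time gave 0 members past the adjusted threshold in each comparison, and medians of 0.01 to 0.26 for mitotane, 0.11 to 0.31 for 9-cisRA and 0.01 to 0.26 for combined, each against control, -0.12 to 0.02 for combined against mitotane, -0.19 to -0.02 against 9-cisRA and -0.36 to -0.13 for the interaction. The median of combined against mitotane was 0.02 without combined replicate 1 and 0.02 without mitotane replicate 2, against -0.04 reported. With slide as a replicate block the medians were 0.16, 0.23, 0.16, -0.04, -0.07 and -0.25 (interaction), and no member passed the adjusted threshold; the counts at an unadjusted p under 0.05 changed, and are given beside the reported ones. For 9-cisRA against control, COX6C, NDUFAB1 and COX8A were 0.11, 0.045 and 0.17 with array weights, and 0.14, 0.046 and 0.14 without control replicate 4, with or without combined replicate 4. Over the arrays left out in turn they ran from -0.75, -0.34 and -0.46 to those values. COX8A was 0.0073 with quantile normalisation. With the mean of all probes, NDUFA10 was -0.17 for combined against mitotane and -0.41 for the interaction, and SDHA -0.21 for combined against 9-cisRA. For the interaction, COX8A was -0.11 with array weights and -0.13 without control replicate 4 and combined replicate 4. COX6C was -0.35 with array weights, -0.39 without both of these arrays and -0.24 without control replicate 4. Leaving out single arrays gave up to 0.61 and 0.65. The cause was not tested, beyond the weight or absence of control replicate 4. Every member probe used was well above background.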
